A study of Danio rerio with 6 samples.

Results

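The genes described here encode the translocases that carry proteins into mitochondria and the VDAC channels of the mitochondrial outer membrane. They were taken from the deposited expression table as every row whose gene name begins with tomm, timm or vdac followed by a digit, ignoring case. This gave 29 of the 21837 rows used, with 28 names, because tomm20a has 2 rows. Of the 29 rows, 26 had a mean of at least 1 FPKM (fragments of a gene relative to its transcript length and to the size of the library) over the 6 libraries and were tested. By role they comprised 11 outer membrane translocase (TOM) rows, 6 small TIM chaperones of the intermembrane space, 2 genes of the TIM22 translocase, 7 of the TIM23 translocase and its motor, and 3 VDAC genes.

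GFP+ cells had been taken from zebrafish embryos of the line Tg(fli1a:eGFP) at 28 hours post fertilization (hpf) for RNA sequencing. In this line, regulatory sequence of the endothelial gene fli1a drives green fluorescent protein. The embryos carried a control morpholino (control MO, 3 libraries) or a clec16a morpholino (clec16a MO, 3 libraries), a morpholino being an antisense oligomer that blocks translation or splicing of its target. The cells were not cultured, the series title names mitophagy, the removal of mitochondria by autophagy, and no label says whether replicates are separate clutches, so that p-values reflect only the spread of these libraries, which may be technical.

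Most mitochondrial proteins are made in the cytosol and must cross one or both mitochondrial membranes. In the TOM complex, receptors hand precursors to a pore in the outer membrane. TIM23 then passes proteins with a presequence into the matrix or inner membrane, while small TIM chaperones ferry carrier proteins to TIM22, which inserts them into the inner membrane. VDAC proteins are outer membrane channels for ATP, ADP and other metabolites, and in mammalian cells they are also among the proteins that are tagged with ubiquitin when mitochondria are marked for removal.

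The groups follow the genotype label; the sample titles, which begin with Exp2D (control MO) and NegaP (clec16a MO), do not name a morpholino and so do not check that label. The libraries differed in far more than the import genes, and this bears on every value below. clec16a itself read 14.4, 14.1 and 14.3 FPKM with the control MO and 5.68, 5.57 and 4.24 FPKM with the clec16a MO, a log2 difference of -1.32 (SE 0.13, limma's adjusted p = 5.5e-05, Benjamini-Hochberg). The clec16a difference was -0.63 with each library centred on its median (limma's adjusted p = 0.0031) and -0.80 with quantile normalization (limma's adjusted p = 0.00041). As deposited it stood at percentile 33.5 of all tested genes, so many other genes fell as much or more. Of 12153 genes tested, 81.3% were called, 26.7% higher and 54.6% lower in the clec16a MO libraries. Rows above 0 numbered 19317, 19250 and 19284 in the controls and 15715, 15153 and 15871 in the clec16a MO libraries. The part of this in the comparisons with all genes was not tested. All 10 endothelial markers were called lower, their summed level going from 2973 to 3053 FPKM in the controls to 470 to 488 FPKM in the clec16a MO group, where erg was listed at 0 throughout; so the labelled cell type had its markers at much lower levels there. All 10 erythroid markers were called higher (summed, 24.8 to 25.6 against 5634 to 6147 FPKM), as were 7 of the 9 myeloid markers tested (summed over the list, 225 to 232 against 940 to 1354 FPKM). mpx and mpeg1.1 were listed at 0 in every control library, and marco was at 0 in all but 1 library. lcp1 was not called as deposited (0.13) or with quantile normalization (0.40), but was called higher with median centring (0.82, limma's adjusted p = 0.0073). cebpb was called lower, from 204 ± 3.70 to 43.7 ± 3.99 FPKM (SD, n = 3), and made up most of the myeloid sum in the controls. All 8 skeletal muscle markers (2762 to 2785 against 19.2 to 31.0 FPKM) and all 8 epidermal markers (487 to 512 against 69.5 to 78.1 FPKM) were called lower as deposited. Of these, the epidermal epcam (-0.72) was not called with median centring (-0.03) or quantile normalization (-0.41). The muscle marker myog was not called with quantile normalization (-0.3). The part of these cell type markers in the import gene results was not tested, and in such bulk samples fewer cells of a type and less RNA per cell cannot be told apart.

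Import genes were higher in the clec16a MO libraries more often than lower. The VDAC genes were lower, vdac3 steeply, and vdac1 and vdac2 by nearer to what the median gene showed. Of the 26 rows tested, 15 were called higher (57.7%, where 26.7% of all tested genes were), 7 lower (26.9%, where 54.6% of all genes were) and 4 were not called. These counts pool import and VDAC genes, and the 3 VDAC genes were all among the 7 called lower. With the values as deposited, the highest increases were those of tomm5, timm17a and timm10b and the steepest decreases those of vdac3 and tomm7. The median log2 difference over the 26 rows was 0.46, and over all tested genes it was -0.66. The groups did not overlap for 23 of the 26 rows (88.5%, against 83.7% of all tested genes), with 16 above and 7 below the controls. Median centring of each library moved the median of all genes by 0.69 and quantile normalization moved it by 0.62. With median centring 18 rows were called higher and 2 lower (39.7% and 38.1% of all genes), and with quantile normalization 16 and 6 (38.0% and 39.8%). All differences below are of log2(FPKM + 1), clec16a MO minus control MO, on which the change of low genes is understated.

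**Figure D1:**
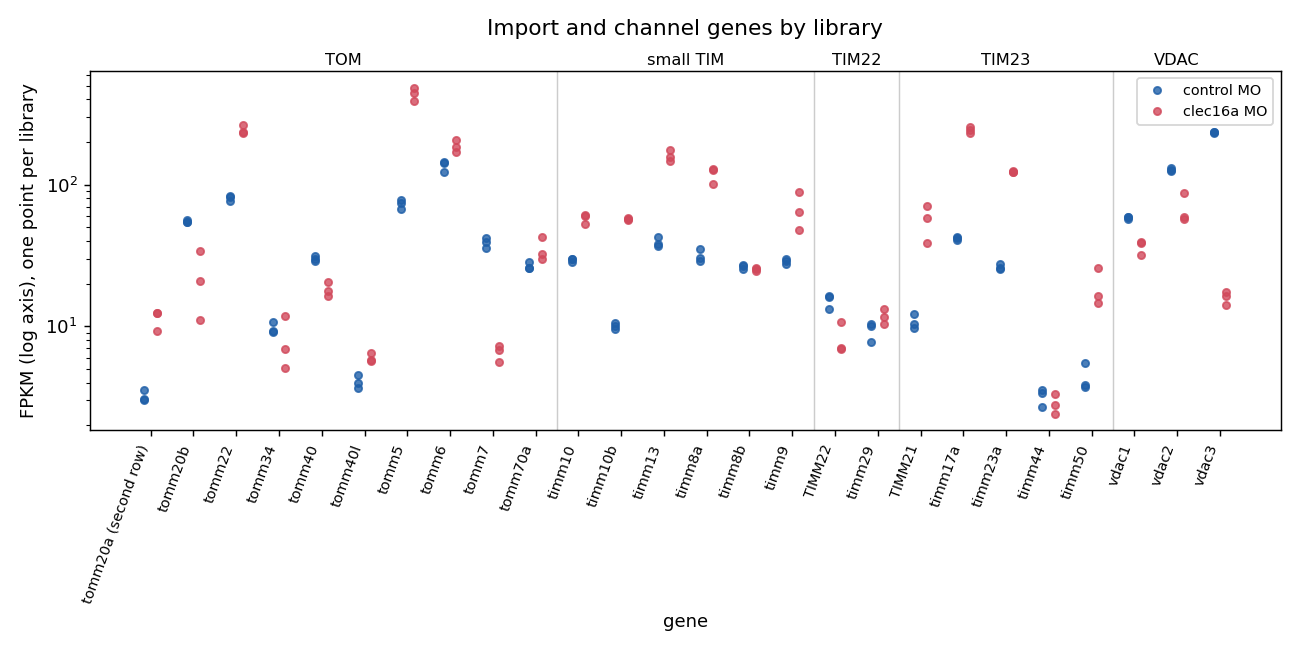
FPKM of the 26 tested rows on a log axis, with 1 point per library (3 control MO in blue, 3 clec16a MO in red), grouped by role. The clec16a MO points of tomm5, timm10b, timm17a and timm23a lie wholly above the control points, and those of tomm7 and of all 3 VDAC genes wholly below them.

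The summed level of all 29 rows was 1169, 1174 and 1128 FPKM with the control MO and 2166, 1931 and 2055 FPKM with the clec16a MO, or 0.232% ± 0.00181 and 0.392% ± 0.00457 of all summed FPKM (SD, n = 3). The order of the members changed. In the controls vdac3 led at 235 FPKM, followed by tomm6 at 137 and vdac2 at 128 FPKM; the last of these overlapped the range of tomm6. In the clec16a MO libraries tomm5 led at 439 FPKM, followed by tomm22 and timm17a, both at 244 FPKM and overlapping in range. Relative spread between replicates (SD over mean) was larger in the clec16a MO group for 21 of 26 rows, with a median of 11.7% against 6.27% in the controls; over all tested genes, which differ from the members in level, the medians were 25.9% and 6.28%. Among the tested members it was smallest in the clec16a MO group for timm10b (1.07%) and timm23a (1.33%) and largest for tomm20b (52.2%).

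Receptors of the TOM complex moved in different directions. tomm22, whose product is the central receptor that also holds the complex together, read 83.0, 81.3 and 76.8 FPKM in the controls and 232, 237 and 265 FPKM in the clec16a MO group. It rose 3.04-fold (log2 difference 1.59, SE 0.087, limma's adjusted p = 2.7e-06), with the groups far apart. tomm20b, a gene for the presequence receptor, read 54.3, 56.1 and 54.4 FPKM in the controls and 21.0, 11.0 and 33.9 FPKM in the clec16a MO group. All of the latter were lower, but relative to their mean they differed among themselves by more than those of any other tested member. tomm20b fell (log2 difference -1.41, SE 0.347, limma's adjusted p = 0.0069), but was no longer called after median centring (-0.72, limma's adjusted p = 0.088). Of the paralog tomm20a, the second row read 3.54, 3.06 and 2.99 FPKM in the controls and 9.30, 12.4 and 12.4 FPKM in the clec16a MO group, a rise of 1.55 on the log2 scale (SE 0.148, limma's adjusted p = 4.6e-05). The first row, below the filter, read 1.22, 0.816 and 0.867 FPKM and then 0, 0.0945 and 0 FPKM, so the 2 rows of this gene ran in opposite directions. How reads were divided between them is not given in the sources used here, and both are uncertain. With the rows summed, tomm20a was higher by 1.26 (limma's adjusted p = 0.00017).

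tomm70a encodes the receptor for carrier precursors brought by cytosolic chaperones. It read 28.4, 25.7 and 25.9 FPKM in the controls and 42.5, 29.9 and 32.5 FPKM in the clec16a MO group, which lay just above. The log2 difference of 0.36 was called (SE 0.143, limma's adjusted p = 0.048), but it missed the threshold when any of 5 libraries was left out (limma's adjusted p = 0.077, 0.13 and 0.13 without control replicate 1, 2 or 3, and 0.052 and 0.061 without clec16a MO replicate 1 or 3). Without clec16a MO replicate 1 the difference was 0.22. tomm34, for a cytosolic protein that in mammals binds chaperones carrying precursors, read 9.29, 9.11 and 10.7 FPKM in the controls and 5.07, 11.8 and 6.86 FPKM in the clec16a MO group. Its groups overlapped, and it was not called (log2 difference -0.33, 95% interval -0.96 to 0.29, limma's adjusted p = 0.28). Among the alternatives run, it passed only without clec16a MO replicate 2 (-0.63, limma's adjusted p = 0.0087), and its sign turned with median centring and quantile normalization.

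The pore genes also diverged. tomm40, for the pore itself, read 31.2, 29.1 and 30.0 FPKM in the controls and 20.4, 16.2 and 17.8 FPKM in the clec16a MO group, all of which were lower. It fell (log2 difference -0.70, SE 0.111, limma's adjusted p = 0.00069) by about as much as the median gene, and with median centring the difference was -0.01 (limma's adjusted p = 0.92). tomm40l, for a related pore protein, stood at 3.95, 3.66 and 4.50 FPKM and at 5.82, 6.45 and 5.65 FPKM. These low values did not overlap, and tomm40l was called higher by 0.47 (SE 0.125, limma's adjusted p = 0.0098), but not without control replicate 1 or 2 (limma's adjusted p = 0.052 and 0.060).

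Of the small TOM subunits, which help assemble and stabilize the complex, tomm5 and tomm7 differed most. tomm5 read 73.8, 77.6 and 67.6 FPKM in the controls and 486, 388 and 442 FPKM in the clec16a MO group. It rose 6.01-fold (log2 difference 2.57, SE 0.109, limma's adjusted p = 9.0e-07), the highest increase among the members as deposited and with median centring. With quantile normalization it was 2.38, below timm10b (2.64), TIMM21 (2.46) and timm50 (2.39). tomm7, whose product in human cells also helps to hold the mitophagy kinase PINK1 at the outer membrane, read 39.4, 42.0 and 35.7 FPKM in the controls and 6.79, 5.57 and 7.26 FPKM in the clec16a MO group. It was 5.97-fold lower (log2 difference -2.41, SE 0.126, limma's adjusted p = 2.2e-06) and stayed called with median centring (-1.72) and quantile normalization (-2.14). tomm6 stood at 142, 144 and 124 FPKM in the controls and, with the clec16a MO, at 208, 169 and 185 FPKM, a smaller rise without overlap (log2 difference 0.45, SE 0.11, limma's adjusted p = 0.0067) that was not called with quantile normalization (0.17, limma's adjusted p = 0.15). In all, 6 of the 10 TOM rows tested were called higher (60.0%, against 26.7% of all tested genes) and 3 lower (30.0%, against 54.6%). With median centring 6 were called higher and 1 lower, where 39.7% and 38.1% of all genes were. With quantile normalization 5 were called higher and 3 lower, where 38.0% and 39.8% of all genes were. The summed level of all 11 rows went from between 433 and 473 FPKM to between 888 and 1037 FPKM.

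Shares of the tested TOM rows in their summed FPKM were computed after these values had been seen. A factor applied to a whole library leaves them as they are. They describe transcript levels of the listed rows, which include tomm34 for a cytosolic protein, and not the make-up of the protein complex. Two-sided exact permutation tests gave p = 0.1 for each of the 10 shares, the floor of 3 libraries against 3. The shares are therefore given as a description. tomm5 took 15.9% ± 0.444 of the summed FPKM of the 10 tested TOM rows in the controls and 44.8% ± 1.79 in the clec16a MO libraries (SD, n = 3). tomm22 took 17.6% ± 0.289 and 25.1% ± 2.36. tomm7 went from 8.52% ± 0.334 to 0.668% ± 0.0476, tomm20b from 12.0% ± 0.511 to 2.21% ± 1.07, and tomm40 from 6.59% ± 0.395 to 1.86% ± 0.105. tomm6, the leading TOM gene of the controls at 29.8% ± 1.06, took 19.2% ± 0.826 in the clec16a MO libraries although its FPKM was higher there.

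**Figure D2:**
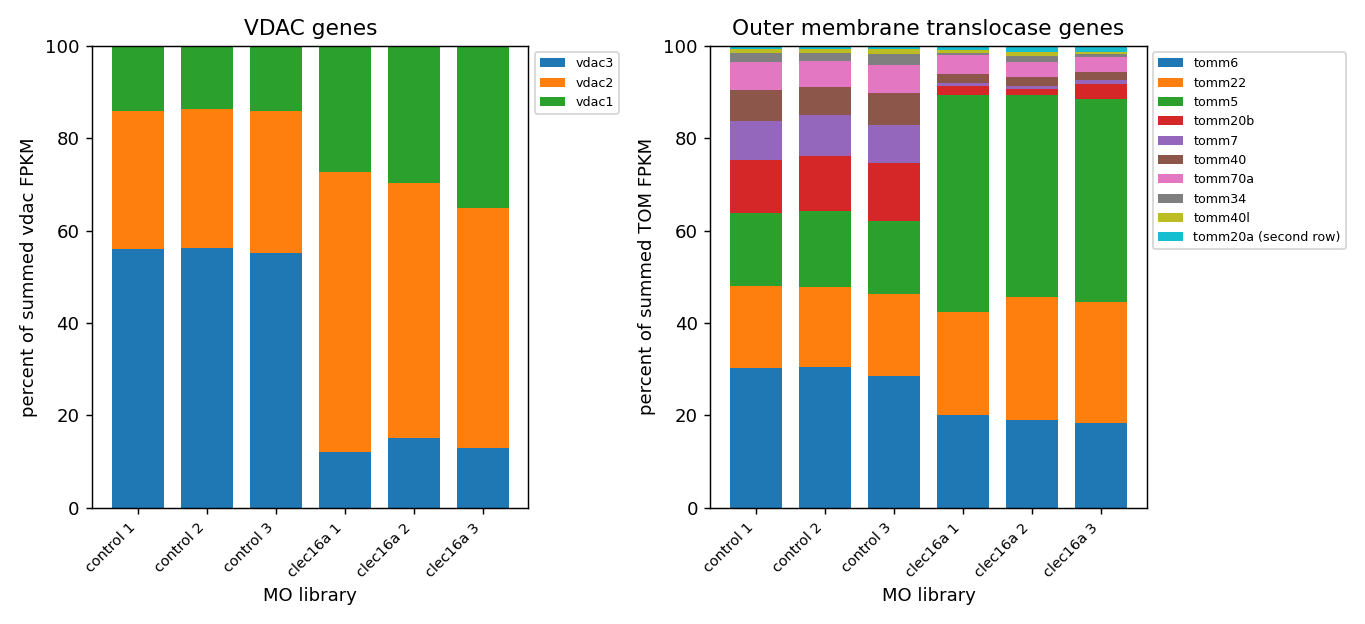
Percent of the summed FPKM taken by each VDAC gene (left) and by each of the 10 tested TOM rows (right), with 1 stacked bar per library adding up to 100%. The vdac3 segment shrinks from 55.8% to 13.4% on average, and the tomm5 segment grows from 15.9% to 44.8%.

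The small TIM chaperones were called higher with the exception of timm8b, whose sign depended on the scaling. Of 6 genes, 5 were called higher (83.3%, against 26.7% of all tested genes) and none lower (against 54.6%), with a median log2 difference of 1.52. Their summed level went from between 161 and 171 FPKM to between 449 and 528 FPKM. timm10b, for a small TIM bound to the TIM22 translocase in mammals, read 9.59, 10.6 and 10.02 FPKM in the controls and 57.5, 56.6 and 57.8 FPKM in the clec16a MO group. It rose 5.69-fold with little spread (log2 difference 2.40, SE 0.088, limma's adjusted p = 5.4e-07). timm9 and timm10 encode the partners that chaperone carrier proteins across the intermembrane space. timm10 read 28.4, 29.8 and 29.9 FPKM in the controls and 53.1, 61.4 and 60.5 FPKM in the clec16a MO group (log2 difference 0.96, SE 0.094, limma's adjusted p = 5.1e-05). timm9 read 27.3, 30.1 and 28.8 FPKM in the controls and 88.5, 47.9 and 64.0 FPKM in the clec16a MO group. It was higher by 1.15 (SE 0.208, limma's adjusted p = 0.0015), with a wider spread than timm10 but no overlap.

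timm8a and timm13 encode the partners that, in yeast and human cells, chaperone inner membrane proteins such as Tim23. timm8a, whose human counterpart is mutated in a deafness and dystonia syndrome, read 35.1, 30.5 and 28.7 FPKM in the controls and 127, 102 and 129 FPKM in the clec16a MO group. It was higher by 1.89 (SE 0.129, limma's adjusted p = 7.8e-06). timm13 read 37.2, 42.7 and 38.0 FPKM and then 176, 157 and 147 FPKM, a rise of 2.0 (SE 0.104, limma's adjusted p = 2.2e-06). Both sets of values were well separated. timm8b, the other gene of the timm8 type, stood at 26.8, 27.1 and 25.4 FPKM in the controls and, with the clec16a MO, at 25.3, 24.6 and 25.9 FPKM. Its groups overlapped and it was not called (log2 difference -0.06, 95% interval -0.27 to 0.14, limma's adjusted p = 0.53); with median centring it was higher by 0.63 (limma's adjusted p = 0.00039) and with quantile normalization by 0.06 (limma's adjusted p = 0.59).

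The 2 genes of TIM22, the carrier translocase, had log2 differences of opposite sign, and neither kept the same call under every scaling. TIMM22, for its channel, read 16.0, 16.3 and 13.1 FPKM in the controls and 10.7, 6.85 and 7.06 FPKM in the clec16a MO group, all lower. The call (log2 difference -0.83, SE 0.183, limma's adjusted p = 0.0041) ended with median centring (-0.14, limma's adjusted p = 0.50) and quantile normalization (-0.38, limma's adjusted p = 0.064). timm29, for a TIM22 subunit found in animals, stood at 7.77, 10.04 and 10.4 FPKM and at 10.4, 13.2 and 11.6 FPKM. These groups touched without overlapping, and the difference of 0.29 was not called (95% interval -0.06 to 0.65, limma's adjusted p = 0.10), but it was 0.99 with median centring (limma's adjusted p = 0.00063) and 0.77 with quantile normalization (limma's adjusted p = 0.0018).

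Genes of TIM23, the presequence translocase, were called higher with the exception of timm44, which was called higher only after rescaling. timm17a, for a channel subunit, read 42.9, 42.1 and 40.5 FPKM in the controls and 244, 256 and 231 FPKM in the clec16a MO group. It rose 5.83-fold (log2 difference 2.51, SE 0.081, limma's adjusted p = 3.4e-07). timm23a, for the subunit that names the complex, read 27.6, 25.2 and 26.0 FPKM and then 124, 122 and 125 FPKM. It rose 4.71-fold (log2 difference 2.19, SE 0.08, limma's adjusted p = 5.4e-07), and both genes had wide gaps between the groups.

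timm50 encodes the receptor that takes over precursors from the TOM complex. It read 3.72, 5.54 and 3.87 FPKM in the controls and 25.6, 14.5 and 16.4 FPKM in the clec16a MO group, a rise of 1.86 (SE 0.234, limma's adjusted p = 0.00021). TIMM21, for a subunit that links TIM23 to the TOM complex and, in yeast, to the respiratory chain, read 9.73, 12.2 and 10.4 FPKM and then 38.7, 71.0 and 57.7 FPKM, a rise of 2.23 (SE 0.219, limma's adjusted p = 5.4e-05). Neither gene had overlapping groups, although the clec16a MO values were spread. timm44, for the anchor of the import motor on the matrix side, read 3.39, 2.71 and 3.55 FPKM and then 2.76, 3.34 and 2.40 FPKM. Its groups overlapped and it was not called (log2 difference -0.14, 95% interval -0.49 to 0.22, limma's adjusted p = 0.42), whereas it was called higher with median centring (0.56, limma's adjusted p = 0.011) and quantile normalization (0.72, limma's adjusted p = 0.0029).

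The b paralogs of the channel subunits stood near 0 in both groups and below the filter. timm17b read 0.346, 0.666 and 0.548 FPKM in the controls and 0.756, 0.207 and 1.13 FPKM in the clec16a MO group. timm23b read 0.443, 0.217 and 0.417 FPKM and then 0.980, 0 and 0 FPKM. The groups overlapped for each of these, and timm17a and timm23a made up nearly all of the FPKM of their pairs in every library. Of the 5 TIM23 rows tested, 4 were called higher (80.0%, against 26.7% of all tested genes) and none lower (against 54.6%). The summed level over all 7 rows was 85.2 to 88.7 FPKM in the controls and 434 to 467 FPKM in the clec16a MO group.

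**Figure D3:**
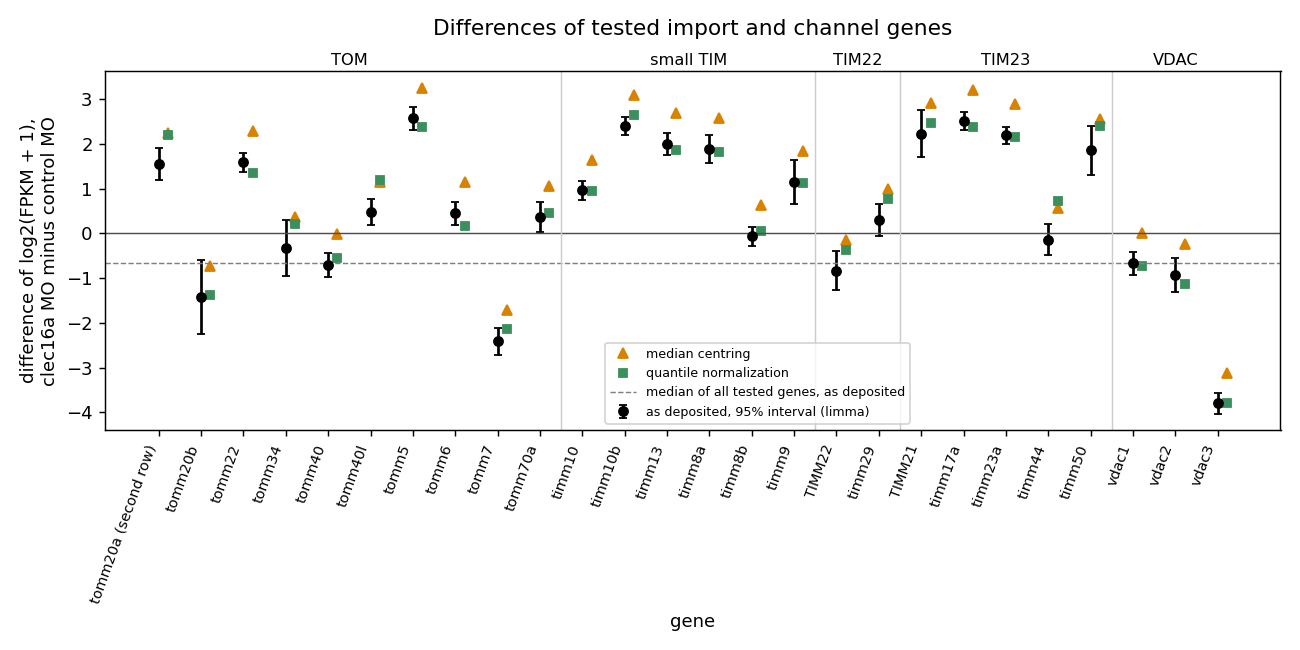
Difference of log2(FPKM + 1), clec16a MO minus control MO, for the 26 tested rows, with limma's 95% interval (black), and the same difference after median centring (orange) and quantile normalization (green); the dashed line is the median of all tested genes, -0.66. vdac3 (-3.80) and tomm7 (-2.41) stay below 0 under each scaling, while tomm34, timm8b, timm44 and vdac1 change sign with median centring.

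The VDAC genes were all called lower with the values as deposited, as were 54.6% of all tested genes, at very different sizes. vdac3 read 236, 233 and 235 FPKM in the controls and 17.4, 16.3 and 14.1 FPKM in the clec16a MO group. It was 14.7-fold lower (log2 difference -3.80, SE 0.098, limma's adjusted p = 1.6e-07), the steepest fall among the members, and it lay in the lowest 2.8% of all tested genes. vdac2, whose product in mammals also binds the cell death protein BAK, read 127, 125 and 131 FPKM and then 87.0, 59.4 and 57.0 FPKM. vdac1, in mammals the most studied of the channels, read 59.1, 56.8 and 59.4 FPKM and then 39.3, 31.8 and 38.4 FPKM. Neither overlapped, with log2 differences of -0.93 for vdac2 (SE 0.163, limma's adjusted p = 0.0013) and -0.67 for vdac1 (SE 0.106, limma's adjusted p = 0.00072). They stood at percentiles 43.3 (vdac2) and 49.8 (vdac1) of all tested genes, whose median difference was -0.66. These 2 calls ended with median centring, where vdac2 stood at -0.24 (limma's adjusted p = 0.20) and vdac1 turned to 0.02 (limma's adjusted p = 0.85), and both held with quantile normalization (-1.14 and -0.73).

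Shares of the VDAC genes in their summed FPKM, which a factor applied to a whole library does not alter, lay apart in the groups. vdac3 took 56.0%, 56.2% and 55.2% of the summed VDAC FPKM in the controls and 12.1%, 15.1% and 12.9% in the clec16a MO libraries. vdac2 took 30.0%, 30.1% and 30.8% and then 60.5%, 55.3% and 52.0%, and vdac1 took 14.0%, 13.7% and 14.0% and then 27.3%, 29.6% and 35.1%. No library of one group reached the range of the other for any of the 3 genes. Single genes did not overlap for 83.7% of all tested genes, and no such background was computed for shares. The shares of a library are parts of the same sum, so they are not independent. Those of vdac1 and vdac2 were larger in the clec16a MO libraries although the FPKM of both genes was lower there. By share, vdac3 was the leading channel gene in every control library and vdac2 in every clec16a MO library. Two-sided exact permutation tests gave p = 0.1 for each share, which is the floor of 3 libraries against 3. The summed VDAC level went from between 415 and 425 FPKM to between 107 and 144 FPKM.

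Ratios within 10 pairs of related members were compared between the groups. The log2 ratio of vdac2 to vdac3 was -0.87 ± 0.0334 in the controls and 2.0 ± 0.232 in the clec16a MO libraries, and that of vdac1 to vdac3 was -1.99 ± 0.0277 and 1.15 ± 0.228 (SD, n = 3). For vdac1 to vdac2 it was -1.11 ± 0.0230 and -0.85 ± 0.286, with overlapping groups. The ratio of timm8a to timm8b went from 0.24 ± 0.123 to 2.18 ± 0.158, and that of timm10 to timm10b from 1.46 ± 0.0421 to 0.02 ± 0.118, so that transcripts of the last pair stood at about equal FPKM in the clec16a MO group. The ratio of tomm40 to tomm40l went from 2.63 ± 0.117 to 1.45 ± 0.224. The second row of tomm20a against tomm20b went from -3.74 ± 0.115 to -0.77 ± 0.816. Those of timm17a to timm17b and timm23a to timm23b were higher by 2.39 and 2.3 in the clec16a MO libraries. Their b genes were below the filter and overlapped between the groups, so these ratios mostly repeat the rise of the a genes. The groups did not overlap for 8 of the 10 pairs, each with an exact permutation p of 0.1 (two-sided, 0.12 adjusted over the 10 pairs with Benjamini-Hochberg). This p of 0.1 is the floor of 3 libraries against 3, which every pair without overlap reaches, so it only restates the lack of overlap. The exceptions were vdac1 to vdac2 (exact p = 0.4, adjusted 0.44) and the first row of tomm20a to tomm20b (exact p = 0.5, adjusted 0.5). Single genes did not overlap for 83.7% of all tested genes, and no such share was computed for pairs. The pairs are not independent, since the VDAC pairs share genes and tomm20b was used more than once.

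**Figure D4:**
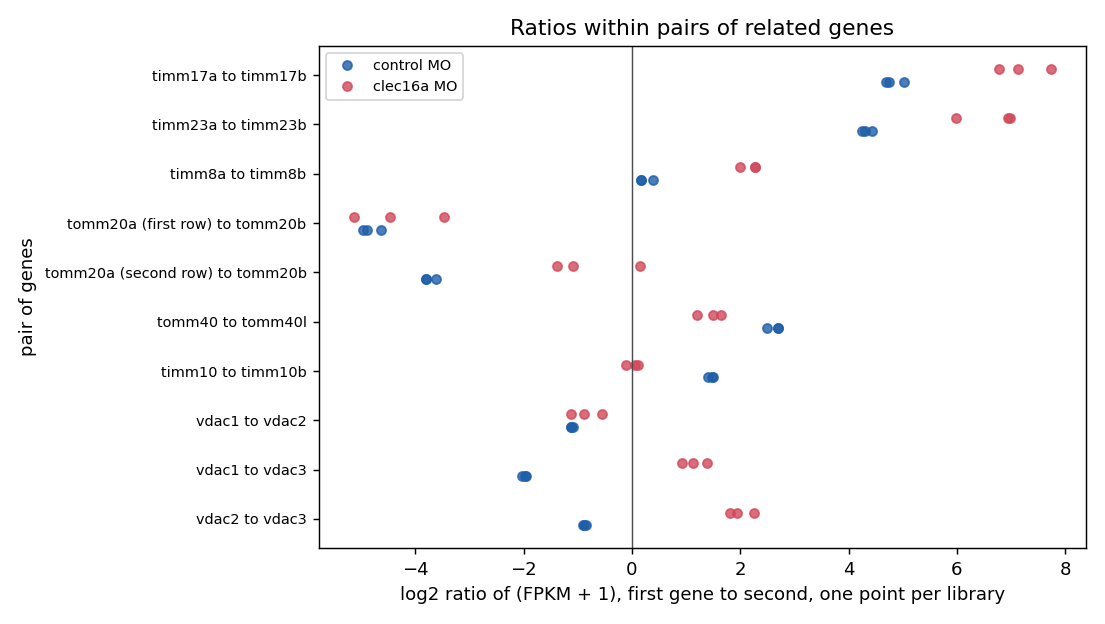
Log2 ratio of (FPKM + 1) of the first gene to the second in 10 pairs of related members, with 1 point per library (3 control MO in blue, 3 clec16a MO in red). The ratios of vdac2 and vdac1 to vdac3 lie on opposite sides of 0 in the 2 groups, while those of vdac1 to vdac2 overlap.

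Other genes, of the import pathway and of related mitochondrial functions, were mixed. Of 32 tested genes of a list that covers outer membrane assembly, the intermembrane space, the import motor, processing peptidases, chaperonins and the cristae-organizing MICOS complex, 14 were called higher (43.8%, against 26.7% of all tested genes), 8 lower (25.0%, against 54.6%) and 10 were not called. Their median log2 difference was 0.28, beside -0.66 over all tested genes. With median centring 23 were called higher and 5 lower, where 39.7% and 38.1% of all genes were. With quantile normalization 20 were called higher and 8 lower, where 38.0% and 39.8% of all genes were. immp1l, for a subunit of the inner membrane peptidase, rose from 0.386 ± 0.206 to 12.2 ± 4.16 FPKM (SD, n = 3; log2 difference 3.22). dnajc15, for a co-chaperone of the motor, rose from 12.7 ± 1.07 to 31.9 ± 1.36 FPKM, and hspa9, for the motor's chaperone itself, from 19.0 ± 0.818 to 38.1 ± 6.21 FPKM. chchd6a, for a MICOS subunit, rose from 9.46 ± 0.4201 to 28.1 ± 2.50 FPKM, while immt, for the core MICOS subunit, fell from 22.5 ± 1.17 to 3.17 ± 0.602 FPKM (log2 difference -2.51). timmdc1, which in spite of its name encodes a complex I assembly factor, rose from 12.6 ± 0.224 to 58.6 ± 10.9 FPKM.

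Of the other lower genes of this list, pmpcb, for the catalytic subunit of the peptidase that removes presequences, fell from 14.3 ± 0.784 to 2.17 ± 0.931 FPKM and hspd1, for the matrix chaperonin, from 26.4 ± 0.619 to 9.09 ± 0.621 FPKM. samm50, for the pore that inserts barrel proteins such as Tom40 and VDAC into the outer membrane, fell from 19.1 ± 0.965 to 9.33 ± 0.326 FPKM. Its log2 difference of -0.96 stood at percentile 42.6 of all tested genes and was -0.26 with median centring (limma's adjusted p = 0.042). With the values as deposited, all of the genes named from this list had limma's adjusted p-values of 0.00033 or less (Benjamini-Hochberg).

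A list of VDAC partners and related genes was close to the background in its lower calls. Of 12 tested, 2 were called higher (16.7%, against 26.7% of all tested genes), 7 lower (58.3%, against 54.6%) and 3 were not called, with a median log2 difference of -0.86. After median centring 5 of them were called higher and 6 lower, where 39.7% and 38.1% of all genes were. With quantile normalization 4 were called higher and 6 lower, where 38.0% and 39.8% of all genes were. tspo, for an outer membrane protein that is found with VDAC and binds cholesterol and porphyrins, rose 7.10-fold, from 61.4 ± 1.68 to 436 ± 60.8 FPKM (log2 difference 2.80, limma's adjusted p = 7.9e-07); the other gene called higher was hspa9. slc25a5, for an ADP/ATP carrier and thus a client of TIM22, fell from 2130 ± 13.7 to 391 ± 72.8 FPKM (log2 difference -2.46, limma's adjusted p = 3.0e-06). Its paralog slc25a4 read 5.73, 4.48 and 5.63 FPKM in the controls and 0.409, 0 and 0 FPKM in the clec16a MO group. spns1, for a lysosomal transporter, fell from 29.4 ± 0.234 to 13.2 ± 0.744 FPKM. Its log2 difference of -1.10 stood at percentile 38.9 of all tested genes and was -0.41 with median centring (limma's adjusted p = 0.0056).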

How the data were processed

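RNA from 6 libraries was measured. Total RNA was reverse transcribed by template switching from oligo(dT), amplified and read from both ends, per the labels' protocols. The FPKM values per gene are those the authors deposited; the submitters' processing notes name StringTie 2.1.6, HISAT2 2.2.1 and cutadapt 1.9. The sources used here give neither build, annotation nor depth, so no counting interval is printed. A search of low values for steps of whole reads put at most 23 of 5709 genes at one ratio, and no counts were recovered. FPKM is relative within a library. Of 21853 rows, 16 named by a date were left out.

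Rows with a mean of at least 1 FPKM were tested as log2(FPKM + 1) with limma 3.58.1 (R 4.3.3, trended moderated test, group as the only term, two-sided, Benjamini-Hochberg over all 12153 rows, threshold 0.05). The test was run on simulated data in which few genes changed and both groups had the same spread. Most genes were called in these data and the groups differed in spread, so that run does not cover this setting. Shares and ratios were compared by exact permutation (SciPy 1.17.1). Figures used matplotlib 3.10.9. Groups came from the genotype label. The alternatives were a pseudocount of 0.1, no filter, a filter of 5 FPKM, median centring, quantile normalization, array weights, a replicate block, each library left out and, chosen after seeing the data, rows of one name summed.

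All 28 member names are symbols in the reference gene table (GRCz12tu, names only). In it, 13 overlap another gene in span, among them tomm5, tomm6, timm13, timm23a, TIMM22, vdac1 and vdac2; strand-specific counting is not stated, so shared reads are possible. Every member is named, of the 2 other lists up to 4 genes per direction with the smallest p (the result of 1 of them is not reported here), and the cell type markers are given as sums. Members, roles and lists were chosen with earlier results of these data known.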

Additional observations from a re-analysis of the deposited data

How the results depend on the processing

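Of the 26 tested members, clec16a and the other import and VDAC partner genes that the naming rule selects, 41 results in all, the 41 kept their direction and side of the threshold with a pseudocount of 0.1, with array weights, with the replicate block and with rows of one name summed. The replicate block gave 15 members higher and 7 lower, the same counts as without it; deviations of same-numbered libraries correlated at 0.0437, -0.0178 and 0.0054, so the numbers are not taken to pair the libraries. Scaling mattered most. With median centring the members' median difference was 1.15 and 2 were called lower, and with quantile normalization the median was 0.86. Signs turned for tomm34 (0.36 with median centring, 0.22 with quantile normalization), timm8b (0.63 and 0.06), timm44 (0.56 and 0.72) and, with median centring only, vdac1 (0.02). Median centring subtracts the shift of the median gene by construction. Leaving out a library gave 13 to 15 members higher and 7 to 8 lower. A filter of 5 FPKM called 6004 of 7082 genes, since fewer were tested. Without a filter 29 rows were tested, the first row of tomm20a was called lower (-0.93, limma adjusted p = 0.0003), timm17b and timm23b were not called (limma adjusted p = 0.63 and 0.74) and tomm70a missed the threshold (limma adjusted p = 0.064). The ratio of the first row of tomm20a to tomm20b turned to -1.62 with a pseudocount of 0.1 (from 0.49). Depth is unknown, so the counting error of low values cannot be stated.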
